A study of Mus musculus with 92 samples.

Results

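Tuft cells are rare chemosensory cells of the intestinal epithelium, known for sensing luminal parasites and metabolites and for releasing interleukin-25 and lipid mediators. Their fate depends on the transcription factor Pou2f3, and their sensing runs through a taste-like cascade of G proteins, phospholipase C, internal calcium release and the channel Trpm5. The 9 genes described here, Pou2f3, Gfi1b, Trpm5, Dclk1, Avil, Sh2d6, Il25, Alox5ap and Ptgs1, were chosen by name from 54532 genes in 4 tables of raw read counts, and each name matched 1 gene. They were picked as known genes of this cell type and not by a threshold on measured values, with earlier results of these data known. They serve here as a readout of this cell type in mouse small intestine and its cultures. Bulk RNA cannot tell fewer tuft cells from less of these transcripts per cell.

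The study removed Eif4g2, which encodes a translation initiation factor, with tamoxifen-activated Cre (CreER). In 1 tissue series the mice carried Rosa26(CreER), a driver active in most cell types, with Eif4g2 flox/flox ("homozygous") or flox/+ ("heterozygous"), and both genotypes received tamoxifen. Crypts and villi were taken on day 9, with 5 heterozygous libraries of each, 4 homozygous crypt libraries and 5 homozygous villus libraries. The dose, age and strain of these mice were not in the labels used. In the other tissue series the mice carried Vil1(CreER), which is expressed in gut epithelial cells. The sample titles of this series read 3 months and do not say whether this is age or time after tamoxifen. Both of its genotypes received 100 mg/kg tamoxifen daily for 4 days, which gave 4 heterozygous and 3 homozygous crypt libraries and 4 heterozygous and 6 homozygous villus libraries.

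Organoids were cultured from adult intestine in medium with EGF, Noggin and R-spondin. In the first organoid set, 3 Eif4g2 flox/flox CreER lines received 0.5 µM 4-hydroxytamoxifen (4-OHT), the active form of tamoxifen, for 24 h or its solvent DMSO, and were collected on day 6. In the second set flox/flox, flox/+ and CreER-only (+/+) organoids, 4 libraries each, all received 4-OHT, so no group of that set was untreated. Fetal spheroids, which grow from fetal intestine, came from 6 flox/flox and 5 flox/+ lines, each with DMSO and with 4-OHT. In a further series 4 organoid lines, 1 +/+ and 3 flox/flox without 4-OHT, received DMSO or A-485, an inhibitor of the acetyltransferases p300 and CBP, at 3, 5 or 10 µM and were collected on day 4.

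The 92 libraries held between 8652040 and 37611126 counted reads. Levels are read counts relative to the TMM-scaled library size (CPM), computed within each of the 6 sets, so that levels from different sets are not on 1 common scale. Eif4g2 itself, the targeted gene, did not overlap between deleted and control libraries: 67.9 to 98.2 CPM in Rosa26-CreER homozygous crypts against 337 to 357 CPM in heterozygous ones, and 84.9 to 224 CPM in flox/flox spheroids with 4-OHT against 706 to 1200 CPM with DMSO. Homozygous Vil1-CreER tissue retained 231 to 240 CPM in crypts and 134 to 182 CPM in villi, against 437 to 488 CPM and 357 to 475 CPM in heterozygous tissue. In the A-485 series Eif4g2 lay between 1110 and 1710 CPM throughout. Unless another tool or setting is named beside it, a p-value adjusted for multiple tests comes from edgeR's quasi-likelihood test over all genes that passed the read filter, with Benjamini-Hochberg adjustment, and a gene is said to have risen or fallen where it was under 0.05.

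Sequence upstream of the annotated start was matched by symbol in the RefSeq promoter table (assembly GRCm38.p6), which held 6 of the 9 genes. Pou2f3 belongs to the POU family, whose members are known to bind the octamer ATGCAAAT, so the 250 bases before each start were searched on both strands for this octamer and for its first 7 letters, ATGCAAA, which lie within it. The octamer was in none of the 6 genes' windows and in 1.6% of the 32851 windows of all promoters. The 7 letters were in 1 of the 6, Avil, and in 4.12% of all windows. In a list of other tuft cell genes described below, 25 had a promoter, and 3 of these held the octamer and so also the 7 letters. Sequences are shown for 3 genes: Avil for its matches, Trpm5 and Sh2d6 because their transcripts moved with Avil in most comparisons below and hold no match. The windows are chr10:127000459-127000708 on the plus strand for Avil, chr7:143094643-143094892 on the minus strand for Trpm5 and chr6:72520037-72520286 on the minus strand for Sh2d6, each printed 5′ to 3′ along the gene's strand and ending at the base before the start. Capitals mark ATGCAAA or its reverse complement. In Avil these letters lie on the minus strand from 115 to 109 bases before the start and on the plus strand from 15 to 9 bases before it.
Avil: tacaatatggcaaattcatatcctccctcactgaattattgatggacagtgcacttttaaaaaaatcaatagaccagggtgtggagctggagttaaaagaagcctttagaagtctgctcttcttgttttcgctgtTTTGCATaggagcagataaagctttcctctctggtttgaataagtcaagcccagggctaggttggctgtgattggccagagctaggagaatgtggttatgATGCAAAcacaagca
Trpm5: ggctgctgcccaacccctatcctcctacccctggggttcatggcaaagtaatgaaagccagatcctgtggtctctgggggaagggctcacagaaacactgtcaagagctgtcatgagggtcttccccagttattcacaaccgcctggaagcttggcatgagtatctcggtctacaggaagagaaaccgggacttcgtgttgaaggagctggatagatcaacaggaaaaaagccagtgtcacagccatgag
Sh2d6: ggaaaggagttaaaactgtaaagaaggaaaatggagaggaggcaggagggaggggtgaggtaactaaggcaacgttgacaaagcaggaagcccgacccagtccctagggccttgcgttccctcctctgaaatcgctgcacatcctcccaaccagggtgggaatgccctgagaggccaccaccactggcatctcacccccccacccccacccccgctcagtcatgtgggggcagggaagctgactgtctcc

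In Rosa26-CreER crypts 6 of the 8 genes that passed the read filter fell with homozygous Eif4g2 deletion and none rose, where 11.6% of all genes tested fell. Pou2f3, the regulator of the lineage, stood at 8.88, 8.22, 6.58, 4.71 and 6.52 CPM in the heterozygous mice (replicates 1 to 5) and at 0.591, 0.551, 0.896 and 2.82 CPM in the homozygous mice (replicates 1, 3, 4 and 5). The groups did not overlap, with homozygous replicate 5 nearest to the heterozygous mice. Its log2 fold change was -2.48 ± 0.48 (SE, adjusted p = 0.00798). Trpm5, the calcium-activated cation channel of taste-like signalling, was at 44.6, 42.8, 28.5, 23.2 and 26.6 CPM against 2.66, 1.02, 1.92 and 8.16 CPM. It fell by 3.23 ± 0.55 on the log2 scale (adjusted p = 0.00448). Avil, an actin-binding protein of the villin family, was at 30.9, 29.2, 19.6, 15.0 and 17.5 CPM against 2.14, 1.60, 1.81 and 5.25 CPM. It fell by 3.01 ± 0.39 on the log2 scale (adjusted p = 0.00137). Sh2d6, an SH2-domain adaptor, fell from 4.99 to 9.36 CPM to between 0.174 and 2.06 CPM (log2 fold change -3.25 ± 0.66, adjusted p = 0.0097). Dclk1, a microtubule-associated kinase widely used as a tuft cell marker, fell from 23.1 to 51.5 CPM to between 2.21 and 10.6 CPM (-2.35 ± 0.47, adjusted p = 0.00888). Gfi1b, a transcriptional repressor of tuft cells and of the erythroid and megakaryocyte lineages, was the lowest of the 6, at 0.527 to 1.14 CPM against 0.0417 to 0.29 CPM (-2.50 ± 0.51, adjusted p = 0.00943). The sum of 5 erythroid and megakaryocyte markers was 1.55 to 22.9 CPM in homozygous and 8.92 to 105 CPM in heterozygous crypts, where 1 of the 5 was called lower and 1 higher, and its part in the Gfi1b value was not tested. The median of the 8 log2 fold changes was -2.49, beside 0.04 over all genes tested.

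The 2 lipid mediator genes did not pass the test in these crypts. Alox5ap, which presents arachidonate to the lipoxygenase Alox5, was at 5.92, 7.46, 6.23, 4.46 and 3.13 CPM in heterozygous crypts and at 6.14, 8.36, 15.3 and 1.49 CPM in homozygous crypts (0.60 ± 0.55, adjusted p = 0.46). Ptgs1, a cyclooxygenase of prostaglandin synthesis, was at 7.24, 7.68, 15.9, 7.68 and 3.30 CPM against 10.6, 11.0, 17.3 and 1.73 CPM (0.35 ± 0.61, adjusted p = 0.715). Homozygous replicate 5, the lowest for both genes, was the highest of its group for Pou2f3, Trpm5, Avil and Sh2d6. Both lipid genes are also expressed in blood and stromal cells. The summed level of 8 leukocyte markers was 342, 537, 504 and 59.9 CPM in homozygous crypts (same order) and 82.1 to 328 CPM in heterozygous crypts, with no marker at 0. The sum of 7 stromal markers was 541, 520, 2000 and 36.1 CPM, against 23.1 to 815 CPM. The part of these cells in the values of Alox5ap and Ptgs1 was not tested.

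In Rosa26-CreER villi 7 of 8 genes tested fell, among them Alox5ap and Ptgs1, where 18.2% of all genes tested fell. Sh2d6 was at 10.6, 19.8, 54.3, 25.3 and 24.6 CPM in heterozygous villi (replicates 1 to 5) and at 0.944, 0.0964, 0.502, 1.94 and 5.16 CPM in homozygous villi. The groups were apart, and Sh2d6 fell by 3.97 ± 0.80 on the log2 scale (adjusted p = 0.00487). Avil was at 11.2, 23.1, 69.3, 31.6 and 28.8 CPM against 1.20, 1.40, 1.28, 4.21 and 6.43 CPM, and it fell by 3.54 ± 0.64 on the log2 scale (adjusted p = 0.00298). Dclk1 was at 16.4, 34.1, 111, 39.5 and 41.9 CPM against 1.37, 0.434, 0.502, 7.58 and 12 CPM, and it fell by 3.51 ± 0.92 (adjusted p = 0.0167), which missed the threshold without the read filter (adjusted p = 0.051). Heterozygous replicate 3 was the highest library for all 9 genes. In it 24.46% of reads were mitochondrial, against 2.74% to 9.63% in the other heterozygous villus libraries. Its leukocyte markers summed to 434 CPM, against 136 to 216 CPM, and its stromal markers to 96.6 CPM, against 2.73 to 71.9 CPM. The part of these in its values was not tested. Homozygous replicates 4 and 5 were the 2 highest of their group for all of the 7 that fell.

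The other 4 genes that fell in these villi had groups that overlapped. Pou2f3 was at 1.11, 3.91, 10.7, 4.51 and 4.40 CPM against 0.558, 0.0482, 0.137, 1.02 and 1.42 CPM (-2.97 ± 0.75, adjusted p = 0.0126). Gfi1b was at 0.422 to 3.08 CPM against 0 to 0.785 CPM (-2.79 ± 0.84, adjusted p = 0.0255). This call was lost without homozygous replicate 1, 3 or 4 or heterozygous replicate 3 or 5 (adjusted p from 0.0512 to 0.061). The sum of 5 erythroid and megakaryocyte markers was also lower there, 2.73 to 10.0 CPM against 13.5 to 146 CPM, and its part in the Gfi1b value was not tested. Alox5ap was at 2.57 to 13.2 CPM against 0.274 to 3.36 CPM (-2.36 ± 0.60, adjusted p = 0.0124). Ptgs1 was at 4.15 to 32.8 CPM against 1.74 to 6.66 CPM (-2.0 ± 0.55, adjusted p = 0.0186), a call lost without the read filter (adjusted p = 0.0585). Leukocyte markers summed to 82.1 to 118 CPM in homozygous and 136 to 434 CPM in heterozygous villi, and their part in these values was not tested.

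Trpm5 stood apart from the other genes in Rosa26-CreER villi. It was at 33.7, 50.8, 139, 68.8 and 56.1 CPM in heterozygous and at 14.2, 33.8, 58.7, 47.0 and 14.8 CPM in homozygous villi. Homozygous replicates 2, 3 and 4 lay within the heterozygous range, and the difference did not pass the test (-1.12 ± 0.49, adjusted p = 0.108). In the same homozygous replicates 2 and 3, Pou2f3 was at 1 and 3 reads while Trpm5 was at 702 and 1287 reads. The genotype effect on Trpm5 was 2.20 ± 0.74 higher on the log2 scale in villi than in crypts, which did not pass the test of the difference (adjusted p = 0.06). It passed without homozygous crypt replicate 5 (3.11, adjusted p = 0.00606), homozygous villus replicate 1 (2.39) or 5 (2.38) or heterozygous villus replicate 3 (2.61).

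Of the 8 genes, 1 differed in its genotype effect between Rosa26-CreER crypts and villi, where 1904 of 16495 genes tested differed in either direction. Its effect was more negative in villi, as was that of 4.86% of all genes. This was Alox5ap, whose effect in villi was 2.84 ± 0.84 lower on the log2 scale (adjusted p = 0.0375). With the animal as a block it did not pass (adjusted p = 0.145), and it was lost without any 1 of 13 of the 19 libraries (adjusted p from 0.0503 to 0.0982). The same difference for Ptgs1 was -2.21 ± 0.82 (adjusted p = 0.0851). Crypt and villus libraries of these mice came in part from the same animals. The share of mitochondrial reads was 13.71% to 25.17% in homozygous crypts and 6.24% to 12.36% in heterozygous crypts, and its part in the crypt values was not tested. Ddx3y, a gene on the Y chromosome, exceeded 1 CPM in every heterozygous mouse, in 1 of 4 homozygous crypt libraries and in 2 of 5 homozygous villus libraries. In the Y-positive homozygous crypt library Pou2f3 was at 0.591 CPM and Avil at 2.14 CPM, below all 5 heterozygous crypt libraries. When the crypt fit had a term for Ddx3y above 1 CPM, Pou2f3 and Avil remained called and Dclk1 (-3.09, adjusted p = 0.0501), Trpm5 (-3.55, adjusted p = 0.0634), Sh2d6 (-3.90, adjusted p = 0.0877) and Gfi1b (-2.94, adjusted p = 0.0871) did not.

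**Figure D1:**
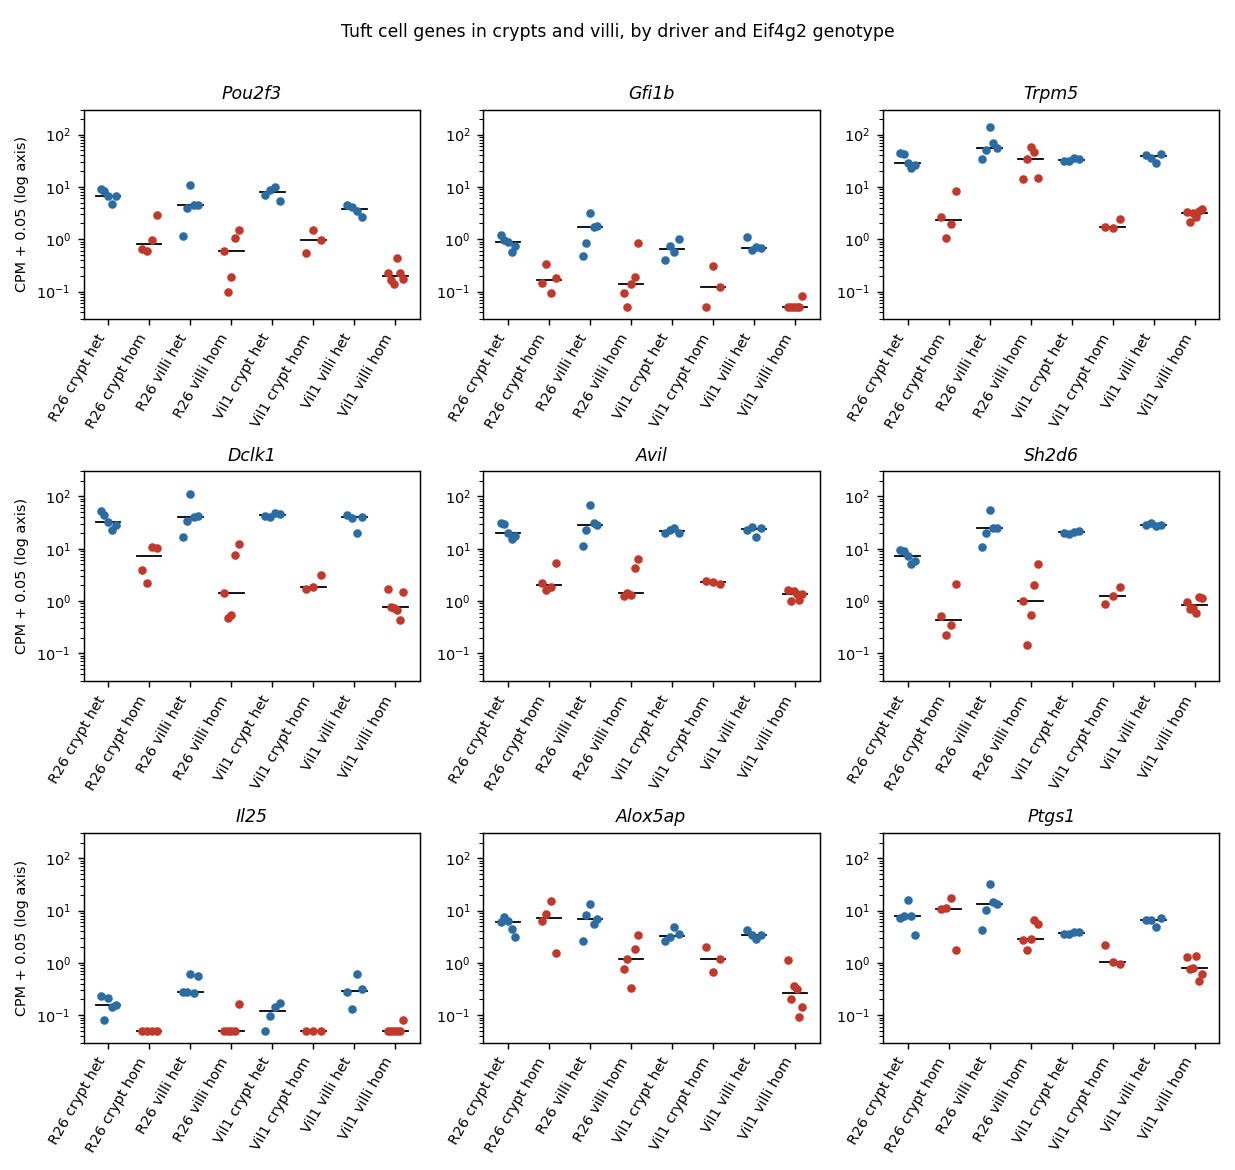
Levels of the 9 genes in mouse tissue libraries, in CPM + 0.05 on a log axis, by driver, compartment and genotype (blue heterozygous, red homozygous). Each point is 1 library and each line a group median. In Vil1-CreER villi every homozygous point lies below every heterozygous point for all 9 genes, while in Rosa26-CreER crypts Alox5ap and Ptgs1 overlap.

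With the epithelial driver Vil1-CreER all 8 genes tested fell in villi, where 21.6% of all genes tested fell. None of the 8 had groups that overlapped, and the share of all genes without overlap was not counted. Sh2d6 was at 28.1, 30.4, 27.2 and 28.9 CPM in heterozygous villi and at 0.546, 0.797 and 1.14 CPM (lowest, median and highest of 6) in homozygous villi. It fell by 5.11 ± 0.20 on the log2 scale (adjusted p = 2.36e-09). Dclk1 was at 44.2, 39.2, 19.8 and 41.0 CPM against 0.393, 0.713 and 1.66 CPM, and it fell by 5.28 ± 0.34 (adjusted p = 2.4e-07). Trpm5, which overlapped between genotypes in Rosa26-CreER villi, was at 41.0, 35.7, 28.6 and 42.3 CPM against 2.06, 3.16 and 3.78 CPM here, and it fell by 3.62 ± 0.17 (adjusted p = 1.08e-08). Avil was at 23.2, 25.7, 17.0 and 25.2 CPM against 0.956, 1.31 and 1.61 CPM, and it fell by 4.16 ± 0.20 (adjusted p = 9.2e-09).

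The regulators and the lipid genes fell as well. Pou2f3 was at 4.55, 4.07, 3.39 and 2.55 CPM in heterozygous villi against 0.0874, 0.149 and 0.39 CPM, and it fell by 4.33 ± 0.38 (adjusted p = 2.15e-06). Gfi1b had 62 reads over the 4 heterozygous villus libraries and 1 read over the 6 homozygous ones. The ratio of their levels was 107, with an exact 95% interval of 18.6 to 4310 that covers counting error only (adjusted p = 1.4e-05 for the fitted difference). Erythroid and megakaryocyte markers were not lower there, at 14 to 34.7 CPM in homozygous and 17.0 to 28.3 CPM in heterozygous villi. Ptgs1 was at 6.52, 6.65, 4.76 and 7.22 CPM against 0.393, 0.735 and 1.29 CPM (-2.94 ± 0.31, adjusted p = 1.1e-05). Alox5ap was at 4.21, 3.33, 2.75 and 3.30 CPM against 0.0437, 0.213 and 1.07 CPM (-3.43 ± 0.56, adjusted p = 0.000372). Leukocyte markers summed to 45.2 to 178 CPM in homozygous and 257 to 455 CPM in heterozygous villi, and their part in these 2 values was not tested. The median of the 8 log2 fold changes was -4.25, beside 0.05 over all genes.

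In Vil1-CreER crypts 7 of the 8 genes tested fell, where 17.7% of all genes tested fell. None of the 8 overlapped between genotypes, and the share of all genes without overlap was not counted here either. Trpm5 was at 30.7, 31.6, 35.6 and 33.5 CPM in heterozygous and at 1.65, 1.62 and 2.39 CPM in homozygous crypts, and it fell by 4.12 ± 0.16 on the log2 scale (adjusted p = 1.17e-05). Dclk1 was at 42.8, 40.4, 48.1 and 46.1 CPM against 1.65, 1.81 and 3.12 CPM, and it fell by 4.34 ± 0.23 (adjusted p = 4.53e-05). Pou2f3 was at 7.10, 8.63, 10.1 and 5.26 CPM against 0.498, 1.48 and 0.936 CPM, and it fell by 2.97 ± 0.39 (adjusted p = 0.00119). For each of these 3 genes every homozygous library lay below every heterozygous one. Alox5ap, at 2.52, 3.01, 4.75 and 3.47 CPM, fell to 1.99, 0.62 and 1.11 CPM (-1.48 ± 0.42, adjusted p = 0.029). Ptgs1, at 3.59, 3.58, 3.80 and 3.79 CPM, fell to 2.15, 0.977 and 0.901 CPM (-1.47 ± 0.33, adjusted p = 0.0116). The call for Alox5ap was lost without heterozygous replicate 3 or 4 or homozygous replicate 2 or 3 (adjusted p from 0.0516 to 0.0927) and with the villus libraries in the fit (adjusted p = 0.0957), and that for Ptgs1 without homozygous replicate 2 (adjusted p = 0.0503). Leukocyte markers were at 344 to 469 CPM in homozygous and 70.4 to 516 CPM in heterozygous crypts, with medians of 456 and 229 CPM. Mast cell markers summed to 72.6 to 158 CPM in homozygous and 6.24 to 59.4 CPM in heterozygous crypts, and 2 of the 4 tested were called higher. Mitochondrial reads made up 30.41% to 40.29% of homozygous and 17.5% to 30.78% of heterozygous crypt libraries. The part of these in the crypt values was not tested. Gfi1b was at 0.356 to 0.943 CPM against 0 to 0.262 CPM and did not pass the test (-2.33 ± 0.81, adjusted p = 0.0616), but it did without homozygous replicate 2 (-3.95, adjusted p = 0.0298) and by DESeq2 (adjusted p = 0.0274). Erythroid and megakaryocyte markers were at 253 to 434 CPM in homozygous and 90.4 to 249 CPM in heterozygous crypts.

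The Vil1-CreER genotype effect differed between compartments for 4 of 8 genes, where 2766 of 17821 genes tested differed in either direction. All 4 were more negative in villi, as were 6.14% of all genes. On the log2 scale the difference was -0.86 ± 0.25 for Avil (adjusted p = 0.0274), -1.10 ± 0.30 for Sh2d6 (adjusted p = 0.0231), -1.46 ± 0.47 for Ptgs1 (adjusted p = 0.0432) and -3.76 ± 1.14 for Gfi1b (adjusted p = 0.0344). Trpm5 had the only positive difference, 0.52 ± 0.25 (adjusted p = 0.17). The median difference over all genes was 0.11. With the animal as a block only Sh2d6 passed, with adjusted p = 0.079 for Avil, 0.0913 for Gfi1b and 0.146 for Ptgs1. Leaving out 1 library moved the count of 4 to between 1 and 5. It was 1 without heterozygous crypt replicate 1. It was 2 without heterozygous crypt replicate 4, homozygous crypt replicate 1 or 2, heterozygous villus replicate 1 or 4, or homozygous villus replicate 2 or 3. Without the read filter it was 1.

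Il25, the cytokine through which tuft cells act on innate lymphoid cells, was counted in few reads everywhere and passed no read filter. Its reads in heterozygous Rosa26-CreER crypts were 7, 1, 6, 3 and 5 and in homozygous crypts 0 in all 4 libraries, which made it at least 6.57-fold lower against a floor of 3 reads over the group. In Rosa26-CreER villi it had 33 reads over 5 heterozygous libraries and 3 over 5 homozygous ones, all 3 in replicate 5 (ratio 12.4, exact 95% interval 3.89 to 63.2). In Vil1-CreER villi the reads were 4, 2, 13 and 6 against 1 read in 6 libraries (ratio 43.3, interval 7.09 to 1780), and in Vil1-CreER crypts 11 against 0 (at least 2.11-fold lower). The intervals and the floor cover counting error only. No organoid or spheroid library had more than 4 reads of Il25, and it was listed at 0 in all 16 A-485 libraries.

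Few of these genes differed between crypts and villi of heterozygous mice. In the Rosa26-CreER mice 2 of 8 differed, where 11400 of 14793 genes tested differed in either direction. Both were lower in crypts, as were 36.4% of all genes. These were Sh2d6, whose crypt levels of 4.99 to 9.36 CPM lay below its villus levels of 10.6 to 54.3 CPM (-1.89 ± 0.38, adjusted p = 0.000741), and Trpm5, at 23.2 to 44.6 CPM against 33.7 to 139 CPM (-1.09 ± 0.35, adjusted p = 0.0149). The call for Trpm5 was lost without the read filter (adjusted p = 0.0643) and in a fit of all 4 groups of the driver (adjusted p = 0.0601). Pou2f3 was higher in crypts without villus replicate 3 (1.05, adjusted p = 0.0165), Gfi1b lower without villus replicate 1 (-1.09, adjusted p = 0.0235) and Ptgs1 lower without crypt replicate 3 (-1.22, adjusted p = 0.044). In the Vil1-CreER mice 3 of 8 differed, where 67.9% of all genes did. Pou2f3 was higher in crypts, at 5.26 to 10.1 CPM against 2.55 to 4.55 CPM (1.15 ± 0.26, adjusted p = 0.00248). Sh2d6 was lower in crypts, at 19.1 to 22.0 CPM against 27.2 to 30.4 CPM (-0.42 ± 0.09, adjusted p = 0.002), as was Ptgs1, at 3.58 to 3.80 CPM against 4.76 to 7.22 CPM (-0.71 ± 0.19, adjusted p = 0.00606). The other 5 had overlapping levels in crypts and villi. Crypt markers (Lgr5, Olfm4, Lyz1 and Mki67) and villus markers separated the compartments as their labels state. In Rosa26-CreER heterozygous crypts 4 of 4 crypt markers were higher and 4 of 4 villus markers lower. The 4 crypt markers also fell in homozygous crypts, with median log2 fold changes of -2.56 (Rosa26-CreER) and -3.3 (Vil1-CreER).

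Per kilobase of gene length, which allows genes to be compared, Sh2d6 was the most abundant of the 9 in Vil1-CreER heterozygous villi, at 15.6 to 17.5 RPKM over 4 libraries. Avil (5.00 to 7.56 RPKM) and Trpm5 (4.47 to 6.62 RPKM) followed, and their ranges overlapped. Dclk1 (1.30 to 2.89 RPKM), Alox5ap (1.93 to 2.97 RPKM) and Ptgs1 (1.23 to 1.86 RPKM) formed the next overlapping levels. Pou2f3 (0.826 to 1.47 RPKM) overlapped Ptgs1, and Gfi1b (0.318 to 0.583 RPKM) and Il25 (0.0782 to 0.524 RPKM) were the lowest. In organoids the order differed: in CreER-only organoids Avil (2.24 to 2.84 RPKM), Pou2f3 (1.87 to 2.77 RPKM) and Trpm5 (1.97 to 2.45 RPKM) overlapped at the top, and Sh2d6 (1.06 to 2.00 RPKM) came below or beside them. The lengths are those of all exons in the tables, which is 15296 bases for Dclk1.

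The organoid sets were nearly free of leukocyte transcripts, whose 8 markers summed to at most 7.40 CPM, below the lowest tissue library at 45.2 CPM. In the first organoid set 5 of 6 genes tested fell 6 days after 4-OHT, where 17.2% of all genes tested fell. Pou2f3 was at 2.75, 2.83 and 2.52 CPM with DMSO and at 0.303, 0.438 and 0.124 CPM with 4-OHT in the same lines. It was lower in 3 of 3 lines and fell by 3.22 ± 0.39 on the log2 scale (adjusted p = 0.00121). Dclk1 was at 5.71, 6.77 and 5.27 CPM against 0.334, 1.04 and 0.031 CPM (-3.67 ± 0.72, adjusted p = 0.00767), and Sh2d6 was at 2.94, 3.13 and 2.70 CPM against 0.546, 0.438 and 0.093 CPM (-3.01 ± 0.48, adjusted p = 0.00318). Line 3 was the lowest with 4-OHT for all 3 of these genes. Trpm5 was at 7.87, 7.31 and 7.66 CPM against 2.52, 2.59 and 2.67 CPM (-1.55 ± 0.15, adjusted p = 0.000675), a smaller and more even difference. Avil was at 4.12, 4.17 and 3.10 CPM against 1.52, 1.31 and 0.496 CPM (-1.78 ± 0.39, adjusted p = 0.0116), a call that was lost when the A-485 libraries were in the fit (-1.76, adjusted p = 0.0765).

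Ptgs1 did not pass the test in the first set, at 2.06, 2.42 and 2.12 CPM with DMSO and 2.91, 1.58 and 1.12 CPM with 4-OHT (-0.23 ± 0.36, adjusted p = 0.651). It was higher with 4-OHT in line 1 and lower in lines 2 and 3. Gfi1b had 7, 5 and 5 reads with DMSO and 0 with 4-OHT, at least 6.38-fold lower against the floor. Alox5ap had 33 reads with DMSO and 2 with 4-OHT (ratio 18.6, interval 4.75 to 160). Leukocyte markers summed to 0.943 to 1.44 CPM with DMSO and 1.33 to 7.40 CPM with 4-OHT. Of these markers, Csf1r was at 0.168 to 0.398 CPM with DMSO and 0.682 to 6.49 CPM with 4-OHT. Ptprc, the general leukocyte marker of the list, was at 0 to 0.0937 CPM with DMSO and 0 to 0.0303 CPM with 4-OHT. Mast cell markers, a list of 5, summed to 1.95 to 3.16 CPM with 4-OHT against 0.354 to 0.656 CPM with DMSO, and the 1 of them tested was higher (2.54 on the log2 scale), while Cpa3 and Fcer1a of this list had no read. Their part in the values of Ptgs1 and Alox5ap was not tested. Among the neighbouring secretory lineages, 7 of 9 goblet and 9 of 10 enteroendocrine markers fell in the same comparison.

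In the second organoid set all 7 genes tested fell in flox/flox organoids, against flox/+ where 24.3% of all genes tested fell, and against CreER-only where 23.5% fell. These 2 comparisons share their flox/flox libraries. Pou2f3 was at 1.80, 1.52, 0.831 and 1.73 CPM in flox/flox, 6.59, 7.82, 8.70 and 6.83 CPM in flox/+ and 6.95, 7.71, 5.78 and 8.55 CPM in CreER-only organoids. The flox/flox libraries lay below both other groups, which overlapped each other (-2.35 ± 0.22 against flox/+, adjusted p = 9.46e-07). Trpm5 was at 3.07, 2.58, 1.36 and 2.68 CPM in flox/flox against 10.4, 11.9, 13.0 and 15.3 CPM in flox/+ organoids (-2.39 ± 0.20, adjusted p = 2.64e-07). Dclk1 was at 3.07, 1.99, 2.61 and 1.97 CPM against 8.90, 11.3, 13.5 and 17.6 CPM (-2.42 ± 0.20, adjusted p = 2.91e-07). Ptgs1, which did not pass in the first set, was at 0.401, 0.265, 0.415 and 0.477 CPM against 1.65, 1.20, 1.58 and 0.964 CPM here (-1.76 ± 0.38, adjusted p = 0.00163). Alox5ap was at 0.0662 to 0.238 CPM against 0.528 to 1.32 CPM (-2.53 ± 0.43, adjusted p = 0.000239). Sh2d6 and Avil had log2 fold changes of -2.97 ± 0.41 (adjusted p = 3.39e-05) and -2.52 ± 0.21 (adjusted p = 3.66e-07). Gfi1b had 0 reads in flox/flox organoids against 12 in flox/+ (at least 3.43-fold lower).

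Loss of 1 Eif4g2 copy was not accompanied by a called change in these genes. Against CreER-only, flox/+ organoids had 0 of 7 genes called by edgeR, 0 at an unadjusted p under 0.05 and 0 by DESeq2, where 0.113% of all genes were called. Their log2 fold changes ran from -0.37 (Dclk1, SE 0.17) to 0.19 (Sh2d6, SE 0.33). Eif4g2 was at 789 to 833 CPM in flox/+ and 1260 to 1330 CPM in CreER-only organoids.

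**Figure D2:**
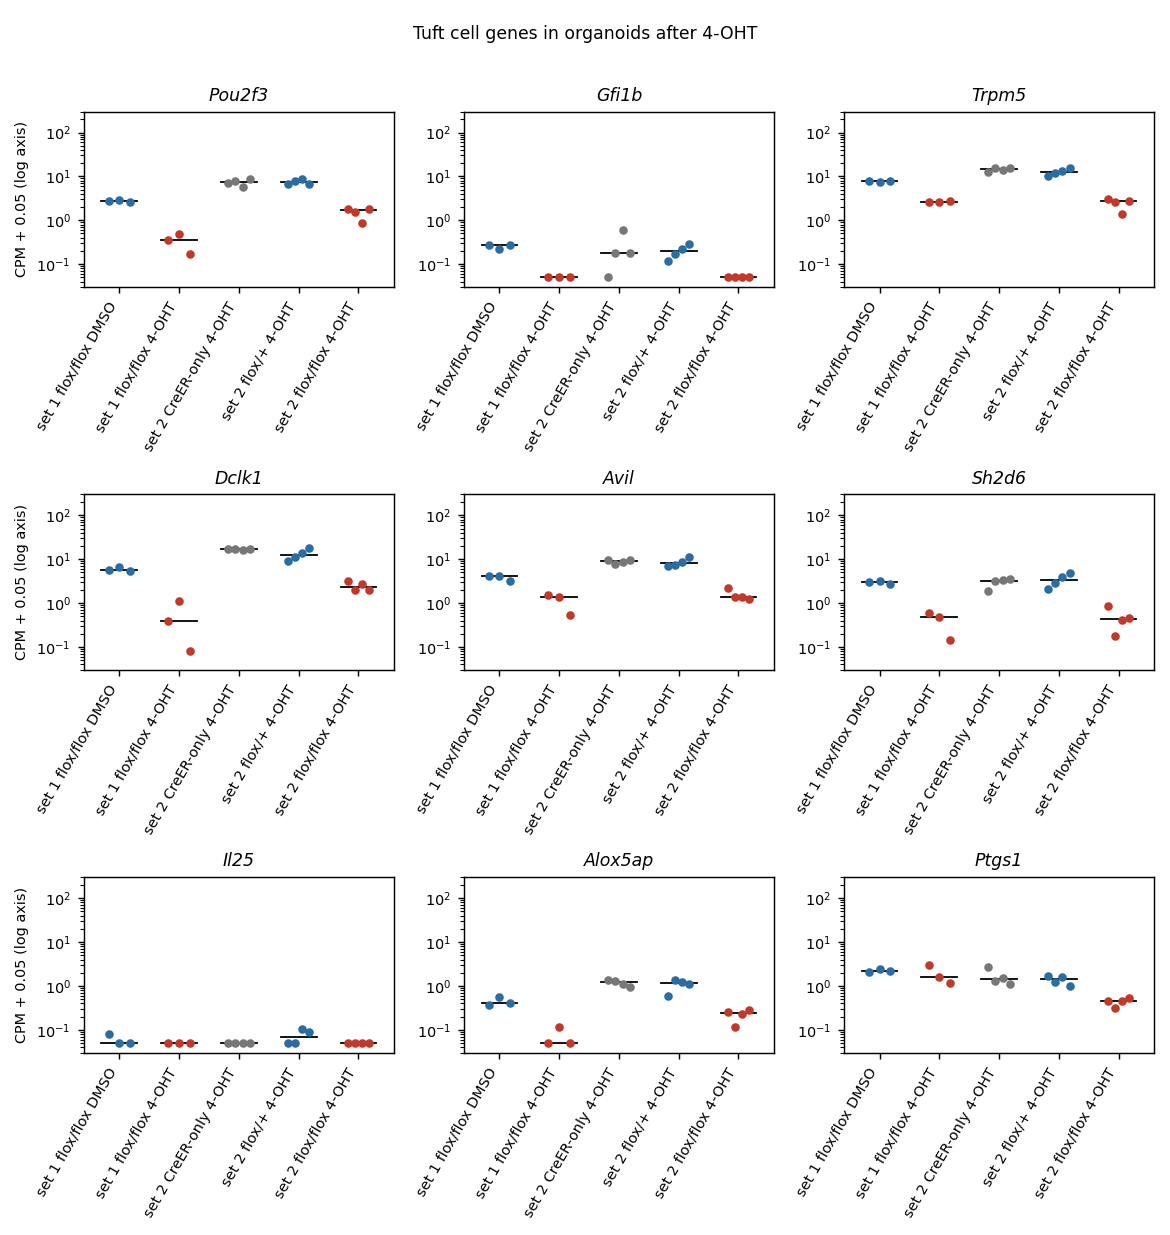
Levels of the 9 genes in both organoid sets, in CPM + 0.05 on a log axis. Each point is 1 library and each line a group median, with flox/flox 4-OHT in red, DMSO or flox/+ in blue and CreER-only in grey. The sets were scaled separately. Pou2f3 with 4-OHT lies at 0.124 to 0.438 CPM in set 1 and at 0.831 to 1.80 CPM in set 2, below the other groups of its set.

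Fetal spheroid lines differed widely in these genes before any deletion. Pou2f3 was at 0.496, 1.39 and 3.27 CPM (lowest, median and highest of 6 lines) in flox/flox spheroids with DMSO, and at 3.12, 2.25, 2.63, 3.99 and 8.87 CPM in the 5 flox/+ lines. Dclk1 was at 0 to 4.37 CPM in flox/flox lines with DMSO. In the flox/+ lines with DMSO it was at 0, 0.214, 0.0462, 8.53 and 17.5 CPM. The 2 flox/+ lines with high Dclk1, lines 4 and 5, were also the highest for Trpm5 (4.47 and 10.6 CPM, the other 3 at 0.151 to 1.45 CPM), Avil and Sh2d6. Of the 9 genes, 5 passed the read filter in spheroids.

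After 4-OHT none of the 5 genes tested passed the test in flox/flox spheroids, where 19.1% of all genes were called. edgeR called 0 of them, 1 was under 0.05 before adjustment and DESeq2 called 0. The lines were not paired in this fit, although deviations of the 6 pairs correlated between 0.327 and 0.765. With the line as a block the count of called genes did not move. Pou2f3 went from 2.39, 1.75, 3.27, 1.03, 0.496 and 1.02 CPM (lines 1 to 6) to 0.134, 0.266, 0.341, 1.43, 0.401 and 1.55 CPM. It was lower in 4 lines and higher in lines 4 and 6 (-1.24 ± 0.58, adjusted p = 0.144). Dclk1 was lower in 5 lines and without a read in both conditions in the other (-3.59 ± 1.78, adjusted p = 0.172). Avil and Ptgs1 were lower in 5 of 6 lines and Trpm5 in 4 of 6, with log2 fold changes of -1.56 ± 1.03, -1.13 ± 0.64 and -0.50 ± 0.97. In the same comparison 8 of 10 enteroendocrine markers and 6 of 9 goblet markers fell, with summed levels of 3.85 to 265 CPM against 207 to 860 CPM and of 195 to 1770 CPM against 3210 to 18700 CPM. Sh2d6 had 22 reads over the 6 DMSO libraries and 0 with 4-OHT (at least 6.89-fold lower).

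In flox/+ spheroids 4-OHT gave no call for these genes. edgeR called 0 of 5, with 0 under 0.05 before adjustment and 0 by DESeq2, and 0.0% of all genes were called. This fit did not pair the lines, and 15 of 15032 genes were under 0.05 before adjustment. Eif4g2 itself, the targeted gene, was not called (log2 fold change -0.81). The lack of calls therefore cannot show that these genes were unchanged. Pou2f3 was at 3.63, 1.89, 2.64, 4.60 and 8.61 CPM with 4-OHT, beside 3.12, 2.25, 2.63, 3.99 and 8.87 CPM with DMSO in the same lines. The genotypes' responses to 4-OHT differed by a called amount for 0 of the 5 genes by edgeR, with 0 under 0.05 before adjustment, where 1.62% of all genes were called. With the line as a block 1 was called, Dclk1 (-4.17, adjusted p = 0.00775). For Pou2f3 the difference was -1.28 ± 0.84 on the log2 scale (adjusted p = 0.555).

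Directly compared after 4-OHT, flox/flox spheroids had lower Pou2f3 than flox/+ spheroids, 0.134 to 1.55 CPM against 1.89 to 8.61 CPM without overlap (-2.61 ± 0.61, adjusted p = 0.0091). It was 1 of 5 genes tested, where 6.13% of all genes fell. DESeq2 called 3 of the 5, adding Dclk1 (adjusted p = 0.0319) and Ptgs1 (adjusted p = 0.0291). Without flox/flox line 3 Dclk1 also passed in edgeR (-8.09, adjusted p = 0.0345), and without flox/flox line 6 Avil (-3.77, adjusted p = 0.0464) and Ptgs1 (-2.50, adjusted p = 0.0216) did. The other 4 overlapped, with log2 fold changes from -1.50 (Trpm5) to -5.41 (Dclk1, SE 1.88, adjusted p = 0.0703). The same genotypes with DMSO had log2 fold changes from -0.24 (Ptgs1) to -2.02 (Dclk1). Of these 5, edgeR called 0 with DMSO, 1 was under 0.05 before adjustment (Pou2f3, -1.33 ± 0.59, adjusted p = 0.668) and DESeq2 called 0, where 0.0% of all genes were called. Stromal markers summed to 7.09 to 218 CPM in flox/+ and 1.24 to 8.69 CPM in flox/flox spheroids with DMSO, and their part in these values was not tested.

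Against flox/+ organoids with 4-OHT, flox/+ spheroids with 4-OHT had 3 of 7 genes lower and 1 higher, where 47.9% of all genes were called in either direction. Sh2d6 was at 0, 0, 0, 0.0422 and 0.783 CPM in spheroids and 2.04, 2.77, 3.79 and 4.74 CPM in organoids, each within its own scaling (-4.05 ± 1.04 in a fit of both groups, adjusted p = 0.00999). Avil (-2.31 ± 0.76, adjusted p = 0.0299) and Alox5ap (-2.25 ± 0.68, adjusted p = 0.0213) were also lower. Ptgs1 was higher in spheroids, 1.04 to 5.19 CPM against 0.964 to 1.65 CPM (1.58 ± 0.45, adjusted p = 0.0156). Pou2f3, with a log2 fold change of -0.69 ± 0.39 (adjusted p = 0.175), and Dclk1, with -1.35 ± 1.17 (adjusted p = 0.37), did not pass. Mast cell markers summed to 6.41 to 27.9 CPM in these spheroids and 0.621 to 1.58 CPM in the organoids. Cpa3 and Fcer1a of this list had no read in either group. Stromal markers summed to 3.17 to 168 CPM in the spheroids and 0.361 to 1.58 CPM in the organoids. Of the 4 stromal markers tested, 3 were called higher. The part of these transcripts in the Ptgs1 value was not tested. The call for Avil was lost without the read filter (adjusted p = 0.0727), and Trpm5 was called lower by DESeq2 (-1.80, adjusted p = 0.034). The count of 4 fell to 2 without organoid replicate 2 or 3 and to 1 without organoid replicate 4. Without spheroid line 5 it was 6, Alox5ap no longer passing the read filter, with Pou2f3 (-1.07, adjusted p = 0.00978), Dclk1 (-2.94, adjusted p = 0.0376) and Trpm5 (-2.69, adjusted p = 0.0082) also lower. Source tissue, culture and sequencing set cannot be told apart in this comparison.

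**Figure D3:**
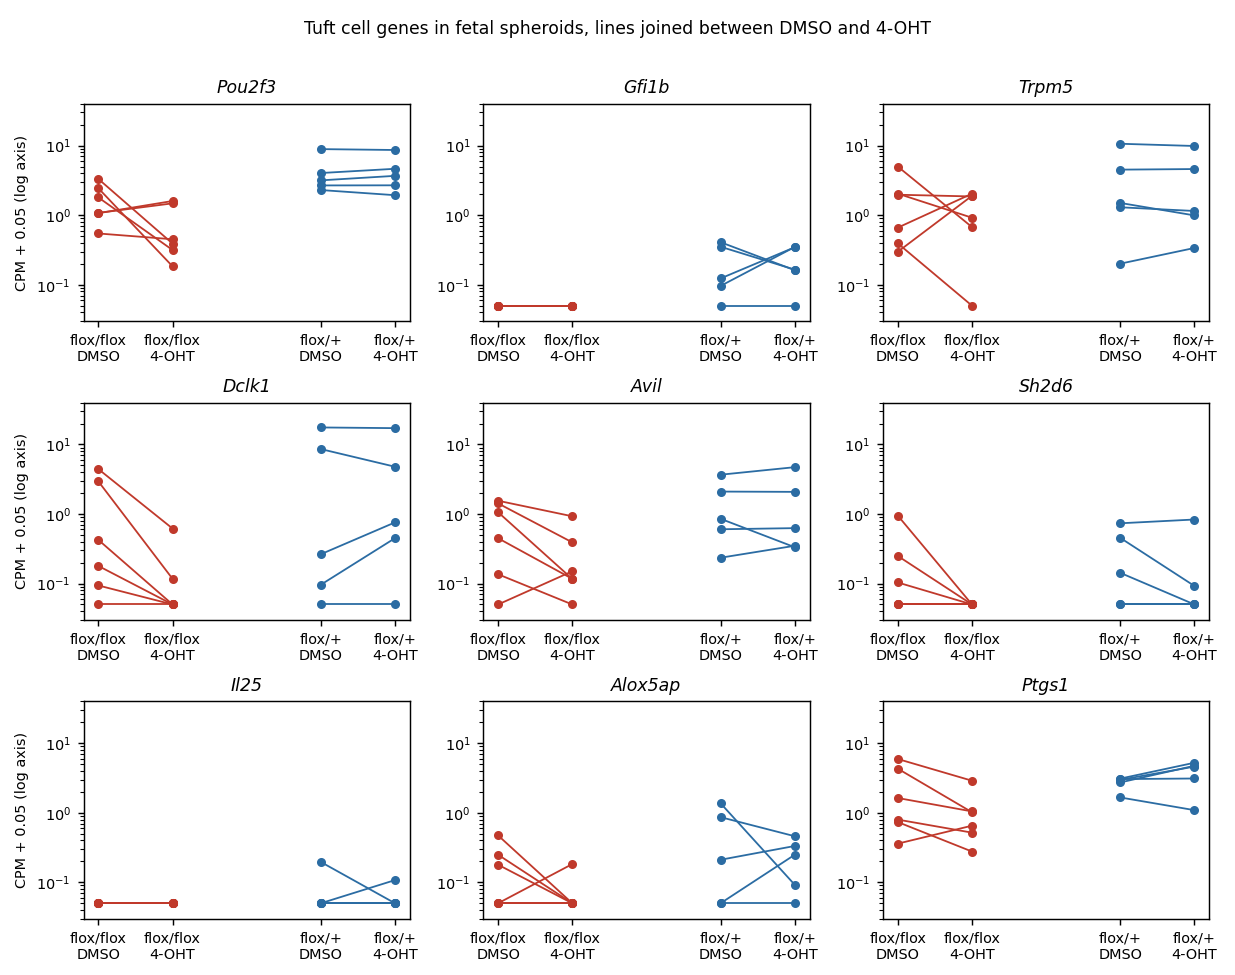
Levels of the 9 genes in fetal spheroid lines with DMSO and with 4-OHT, in CPM + 0.05 on a log axis, with 1 line joining the values of each spheroid line. Flox/flox lines are red and flox/+ lines blue. Pou2f3 is at 0.134 to 1.55 CPM in flox/flox lines with 4-OHT and at 1.89 to 8.61 CPM in flox/+ lines with 4-OHT.

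Most of these genes were lower with A-485 in organoids in which Eif4g2 was not deleted, to an extent that differed by gene and dose. Whether inhibition of p300 and CBP carried these differences was not tested. The DMSO libraries serve all 3 doses, so the comparisons with DMSO share their controls. At 3 µM A-485, 2 of 5 genes tested fell, where 8.42% of all genes tested fell, at 5 µM 5 of 5, where 25.1% fell, and at 10 µM 5 of 5, where 32.6% fell. The median log2 fold changes of the 5 were -1.34, -3.38 and -4.95, beside 0.0, -0.02 and -0.05 over all genes. The median at 10 µM is the same with Dclk1, which had no read there, at its bound.

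Dclk1 fell furthest of the genes tested at each dose, a ranking that leaves out Sh2d6, which did not pass the read filter. Dclk1 was at 24.5, 21.2, 19.2 and 21.3 CPM with DMSO (lines 1 to 4), at 0.913, 1.16, 0.936 and 0.716 CPM at 3 µM, and at 0, 0, 0.145 and 0 CPM at 5 µM. No read was counted in any of the 4 lines at 10 µM, against 1098 reads with DMSO, which makes it at least 382-fold lower against a floor of 3 reads over the group. The 2 reads at 5 µM gave a ratio of 567 (exact 95% interval 157 to 4690). At 3 µM it fell by 4.51 ± 0.40 on the log2 scale (adjusted p = 2.06e-06), and between 3 and 5 µM it fell by 4.30 ± 0.64 (adjusted p = 0.000244).

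Pou2f3 followed Dclk1 only at the higher doses. It was at 8, 3.51, 7.58 and 8.97 CPM with DMSO, at 2.28, 4.37, 4.42 and 0 CPM at 3 µM, at 1.45, 1.35, 1.96 and 2.50 CPM at 5 µM and at 0, 0.134, 0 and 0 CPM at 10 µM. At 3 µM lines 1, 3 and 4 were lower than their DMSO values and line 2 was not (-1.33 ± 0.71, adjusted p = 0.214). At 5 µM it fell by 1.95 ± 0.73 on the log2 scale (adjusted p = 0.0344), a call that was lost without DMSO line 1, 3 or 4 or without 5 µM line 1, 2 or 3 (adjusted p from 0.0639 to 0.0862). At 10 µM 2 reads stood against 358 with DMSO, a ratio of 187 (interval 51.3 to 1550), and the fall from 5 to 10 µM passed the test (-5.27 ± 1.10, adjusted p = 0.00198).

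Trpm5 decreased with each dose in 3 of 4 lines. It was at 18.7, 15.9, 17.1 and 15.1 CPM with DMSO, 4.49, 7.34, 9.62 and 8.80 CPM at 3 µM, 0.302, 4.31, 2.76 and 1.73 CPM at 5 µM, and 0.931, 1.94, 0.199 and 0.664 CPM at 10 µM. All libraries at 3 µM were below all DMSO libraries, although the difference did not pass the test (-1.14 ± 0.52, adjusted p = 0.136). It fell by 2.88 ± 0.56 at 5 µM (adjusted p = 0.000357), and it fell by 4.13 ± 0.61 at 10 µM (adjusted p = 1.15e-05). The difference at 3 µM passed with the line as a block (adjusted p = 0.0237) and in a fit of DMSO and 3 µM alone (adjusted p = 0.0101). Between 3 and 5 µM it fell by 1.74 ± 0.55 (adjusted p = 0.0279), so that 2 of 5 genes, Dclk1 and Trpm5, fell between these doses, where 13.0% of all genes did. Without 3 µM line 3 or 5 µM line 4 the value for Trpm5 was -1.60 or -1.64 (adjusted p = 0.0702 and 0.068). In a fit of these 2 doses alone only Pou2f3 and Trpm5 passed the read filter and neither was called, while with the line as a block Trpm5 was (adjusted p = 0.023).

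Avil did not follow the dose. It was at 4.62, 5.91, 9.12 and 8.27 CPM with DMSO, 1.07, 0.495, 2.21 and 0 CPM at 3 µM, 0.847, 0.676, 0.80 and 0.289 CPM at 5 µM, and 0.788, 2.01, 2.65 and 3.87 CPM at 10 µM. Lines 2, 3 and 4 were higher at 10 than at 5 µM and line 1 was slightly lower. The difference between these doses was 1.79 ± 0.71 on the log2 scale (adjusted p = 0.094, and 0.0314 by DESeq2). Against DMSO it fell by 3.38 ± 0.73 at 5 µM (adjusted p = 0.000898) and fell by 1.59 ± 0.67 at 10 µM (adjusted p = 0.0462). The call at 10 µM was lost without DMSO line 2, 3 or 4 or without 10 µM line 1, 2 or 3 (adjusted p from 0.0637 to 0.122). From 5 to 10 µM only Pou2f3 of the 5 genes passed the edgeR test, where 12.4% of all genes fell. Without 5 µM line 1 Trpm5 passed as well (-1.63, adjusted p = 0.0316).

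Ptgs1 was at 3.77, 1.76, 2.26 and 2.40 CPM with DMSO and at 0, 0.254, 0.582 and 0 CPM at 5 µM (-3.54 ± 1.17, adjusted p = 0.0182). At 10 µM 1 line kept 0.268 CPM and the other 3 had no read (-4.95 ± 1.31, adjusted p = 0.00315). Sh2d6, Alox5ap and Gfi1b did not pass the read filter. Over the 4 DMSO libraries they had 62, 55 and 19 reads, and at 10 µM 0 reads each, at least 21.6-fold, 19.1-fold and 6.6-fold lower. At 5 µM Sh2d6 and Gfi1b had 1 read each. Sh2d6 also had only 1 read at 3 µM and was lower in all 4 lines (ratio 57.1, interval 9.87 to 2290, counting error only). Alox5ap and Gfi1b had 14 and 11 reads at 3 µM, each lower in 3 lines and higher in 1. Line 4 at 3 µM had no read of Pou2f3, Avil or Ptgs1 while it had 86 reads of Trpm5 and 7 of Dclk1. Leukocyte markers summed to at most 2.18 CPM. The sum of 5 mast cell markers was 0.323 to 3.31 CPM with DMSO, 10.3 to 19.9 CPM at 3 µM, 9.89 to 13.9 CPM at 5 µM and 0 to 1.41 CPM at 10 µM. The 1 of them tested was higher at 3 and 5 µM (3.11 and 2.85 on the log2 scale) and lower at 10 µM (-2.07), while Cpa3 and Fcer1a had no read at any dose. The part of these transcripts in the values of Ptgs1 was not tested.

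**Figure D4:**
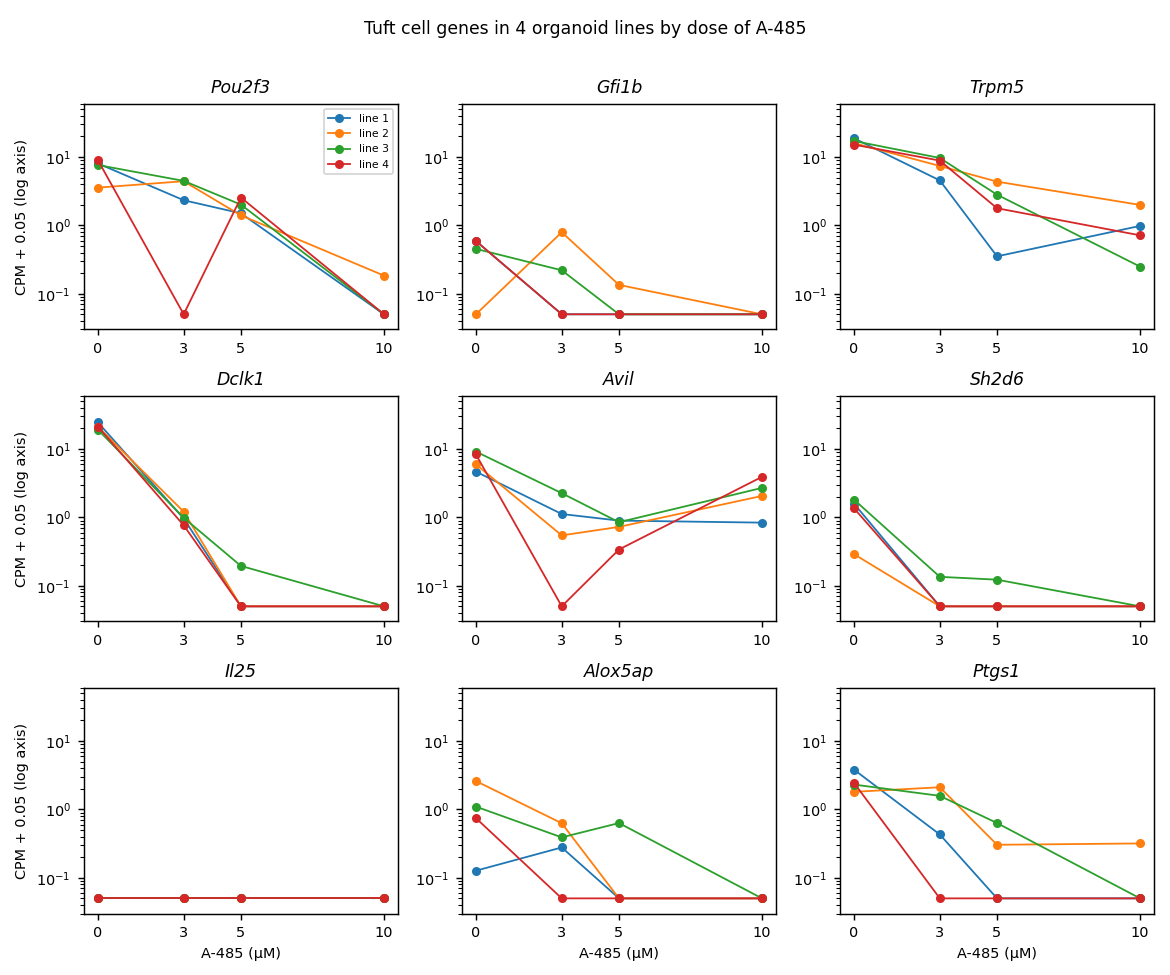
Levels of the 9 genes by dose of A-485 in 4 organoid lines, in CPM + 0.05 on a log axis against dose in µM, where 0 is DMSO and each coloured line is 1 organoid line. Dclk1 goes from 19.2 to 24.5 CPM with DMSO to 0 at 10 µM, while Avil is higher at 10 than at 5 µM in lines 2, 3 and 4. Il25 is at 0 throughout.

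Other genes known from tuft cells, a list of 32 that leaves out the 9, moved in the same direction in most comparisons. Of those tested, 12 of 27 fell in Rosa26-CreER crypts, 23 of 25 fell and 1 rose in Rosa26-CreER villi, 12 of 30 fell in Vil1-CreER crypts and 26 of 29 fell in Vil1-CreER villi. The medians of their log2 fold changes were -0.45, -2.75, -0.76 and -2.67. Cd24a, a glycoprotein of the cell surface, fell by 1.64 ± 0.17 on the log2 scale in Rosa26-CreER crypts (adjusted p = 0.000536). In the first organoid set 16 of 23 fell, among them the phospholipase Plcb2 of the taste-like cascade (-4.19 ± 0.55, adjusted p = 0.00171) and the transcription factor Spib (-3.09 ± 0.37, adjusted p = 0.00121). In the second set 21 of 24 fell and 1 rose against flox/+, and 21 of 24 fell against CreER-only.

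In flox/flox spheroids 3 of 20 of these genes fell with 4-OHT and 1 rose. These counts were near the share of all genes tested, of which 19.1% were called in either direction and 1509 of 15032 fell. Cd24a fell by 1.68 ± 0.40 (adjusted p = 0.00594), and Plcg2 was higher (1.02 ± 0.28, adjusted p = 0.0128). With A-485, 7 of 20 fell and 1 rose at 3 µM, 13 fell and 2 rose at 5 µM and 12 fell and 4 rose at 10 µM. Krt18, a keratin that most intestinal epithelial cells express, was among those that rose, by 1.36 ± 0.14 at 10 µM (adjusted p = 1.08e-07). Markers of the neighbouring secretory lineages also fell in the deletion comparisons in tissue: 5 of 9 goblet and 6 of 10 enteroendocrine markers tested in Rosa26-CreER crypts, 4 of 9 and 6 of 8 in Rosa26-CreER villi, 6 of 9 and 9 of 10 in Vil1-CreER crypts, and 9 of 9 and 8 of 8 in Vil1-CreER villi. With 10 µM A-485, 9 of 9 goblet and 7 of 9 enteroendocrine markers fell, and with 5 µM 4 of 9 goblet markers fell, 1 rose and 7 of 9 enteroendocrine markers fell. At 3 µM, where Dclk1 and Avil fell, 3 goblet markers rose and 1 fell, and 2 of 9 enteroendocrine markers fell. In the second organoid set 5 of 9 goblet markers fell and 1 rose against flox/+, and 9 of 10 enteroendocrine markers fell. The summed goblet level overlapped there between flox/flox (1850 to 2390 CPM) and flox/+ organoids (2240 to 3170 CPM), while the enteroendocrine sum did not (238 to 304 CPM against 617 to 832 CPM). The difference between these lists and the tuft cell genes was not tested.

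**Figure D5:**
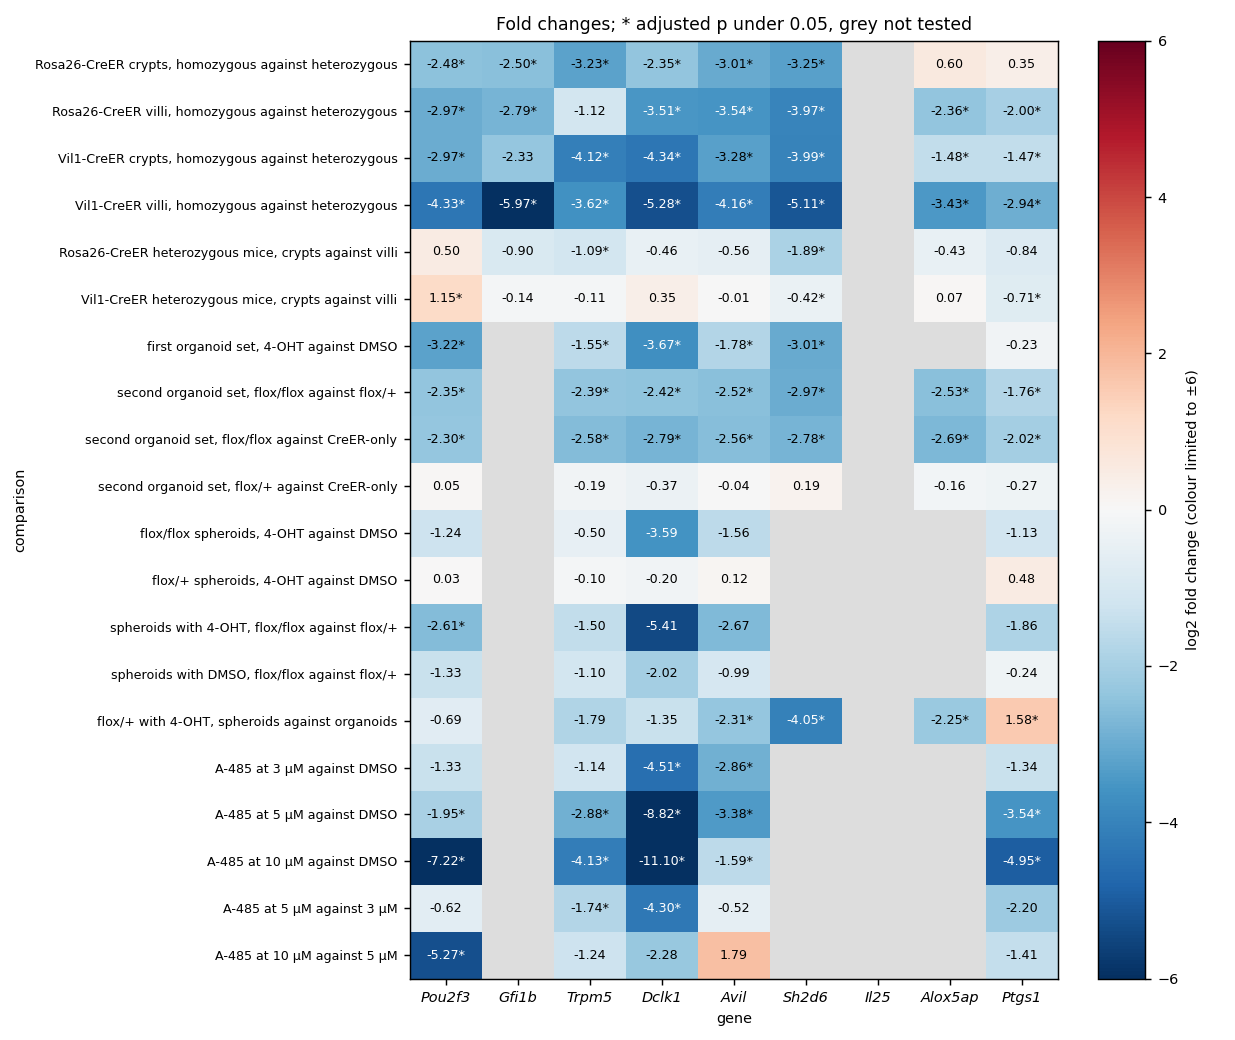
Log2 fold changes of the tested genes in each comparison (rows) by gene (columns), from edgeR, with blue for lower, red for higher and an asterisk for an adjusted p under 0.05. Grey cells did not pass the read filter. Values against a group without reads, such as -11.10 for Dclk1 at 10 µM, are fitted and are no bound. The homozygous and flox/flox comparisons are mostly blue, and flox/+ against CreER-only is near 0.

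Within groups, the genes varied together to different degrees. Over all 92 libraries the deviations of log2(CPM + 0.5) from group means correlated (Pearson's r) at 0.72 between Dclk1 and Avil, 0.72 between Dclk1 and Sh2d6 and 0.69 between Pou2f3 and Avil. Trpm5 shared little with Ptgs1 (0.11) or Il25 (0.04). Among 12252 genes those most like the mean of the 9 by the same measure included Sh2d7 (r = 0.80), Cd24a (0.796), Pik3r5 (0.768), Rgs13 (0.689), Spib (0.686), Kctd12 (0.679) and Grk3 (0.675), where the median gene had r = 0.00818. These values pool all sets and differed between them. For Cd24a r was 0.945 in Rosa26-CreER tissue, 0.0939 in Vil1-CreER tissue and 0.134 in the A-485 series. For Pik3r5 it ran from 0.248 in Vil1-CreER tissue to 0.898 in spheroids, and for Rgs13 it was -0.289 in the A-485 series. These libraries share animals, lines and sets, and the values are descriptions.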

How the data were processed

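RNA was sequenced from poly(A)-selected, strand-marked (dUTP) libraries, per the labels' protocols. The authors deposited 4 tables of raw read counts per gene with no normalization; reads were aligned with HISAT2 2.0.5 to GRCm38 (mm10), per the submitters' processing notes. The counting program, its strand setting and the annotation release are not given in the sources used here. Every row named a gene, and the 92 libraries analysed fell into 21 groups by their labels; organoids in a medium labelled WENR were not analysed here.

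Counts were tested with edgeR 4.0.16 (R 4.3.3, limma 3.58.1): filterByExpr, TMM factors, robust quasi-likelihood F-test, Benjamini-Hochberg adjustment over all genes tested, threshold 0.05. Tissue drivers and the first organoid set were fitted with the 2 groups compared; the second organoid set, spheroids and A-485 series with all their groups; interactions with all 4 groups. Standard errors are the log2 fold change divided by the square root of F. The fit was tested on simulated data. Genes with 1 to 3 reads in a group have a ratio with an exact 95% interval; those with 0 have a bound against a floor of 3 reads over the group.

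The 9 genes, the marker lists, the motif and the alternatives were chosen with earlier results of these data known. Genes named beside the 9 are up to 4 called genes of the other tuft list with the smallest p in each comparison, and the 8 most alike, both given in part; 1 item is not reported here. Nothing in the labels says that every library of a group is a separate animal or culture in all sets, so p-values measure the spread between these samples. Among 164 pairs of libraries within groups none held identical counts, and each pair differed by more than sampling noise (chi-square over its degrees of freedom at least 6.26). Animals or lines shared between groups, per the labels, pair the crypt and villus libraries, the first organoid set, the A-485 series and the spheroids with and without 4-OHT; the correlation of paired deviations ran from -0.00247 to 0.838. Alternatives were DESeq2 1.42.0 and its size factors, no read filter, a replicate block, other libraries in the fit, terms for animal series and Y-linked transcripts, and leaving out 1 library.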

Additional observations from a re-analysis of the deposited data

Results flagged for a closer look

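A library stood apart from the others of its group, by the gap to its nearest neighbour, in 19 of the 118 pairs of gene and group of 4 to 10 libraries tested. The cut-offs flag about 1 in 20 for normally distributed values, which CPM from few reads are not. Any tested group with reads in only 1 library was flagged, and the genes of 1 library are not independent. The count of 19 therefore cannot be read against chance. In Rosa26-CreER homozygous crypts, replicate 5 was high for Pou2f3 (2.82 CPM), Avil (5.25 CPM) and Sh2d6 (2.06 CPM). In Rosa26-CreER villi the heterozygous replicate 3 was high for Dclk1 (111 CPM) and the homozygous replicate 5 for Gfi1b (0.785 CPM). In Vil1-CreER villi the heterozygous replicate 1 was high for Gfi1b (1.07 CPM), and homozygous replicates 4, 6 and 1 were high for Pou2f3 (0.39 CPM), Gfi1b (0.031 CPM, 1 read) and Alox5ap (1.07 CPM).

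Flox/+ spheroid line 5 was high with 4-OHT for Dclk1 (17.1 CPM) and Sh2d6 (0.783 CPM) and with DMSO for Pou2f3 (8.87 CPM), while line 1 with DMSO was low for Ptgs1 (1.61 CPM). Among flox/flox spheroids, line 3 was high for Dclk1 with 4-OHT (0.568 CPM) and for Trpm5 with DMSO (4.95 CPM), and line 6 was high for Ptgs1 with 4-OHT (2.84 CPM). With A-485, line 2 was high at 10 µM for Pou2f3 (0.134 CPM, 2 reads) and Ptgs1 (0.268 CPM), and line 3 at 5 µM for Dclk1 (0.145 CPM, 2 reads).

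The genotype effect differed between villi and crypts, by the interaction test in edgeR, for Alox5ap with Rosa26-CreER (-2.84 on the log2 scale) and for Avil (-0.86), Gfi1b (-3.76), Ptgs1 (-1.46) and Sh2d6 (-1.10) with Vil1-CreER.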

How the results depend on the processing

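Of 346 alternative counts of called tuft cell genes over 23 comparisons, 303 stayed within 1.5 times the reported count. DESeq2's size factors moved none of the 23. The count moved from 6 to 2 in Rosa26-CreER homozygous crypts with a Y-linked term, and from 2 to 1 between Rosa26-CreER heterozygous crypts and villi both without the read filter and with all 4 groups in the fit. It moved to 3 with the DESeq2 test for spheroids with 4-OHT by genotype, to 8 without the filter for 10 µM A-485, where more of the 9 were tested, to 0 in a fit of 3 and 5 µM alone, where 2 were tested, and to 2 with the DESeq2 test between 5 and 10 µM. Without the filter it was 0 for the Rosa26-CreER and 1 for the Vil1-CreER difference between villi and crypts. Leaving out 1 library gave 1 to 3 for spheroids with 4-OHT, 1 to 6 for spheroids against organoids, 1 to 2 between 3 and 5 µM, 1 to 2 between 5 and 10 µM, 0 to 3 for the Rosa26-CreER and 1 to 5 for the Vil1-CreER difference. Where no value shows otherwise, the cause was not tested. Few reads limit Il25, which passed no read filter, Gfi1b in all cultures, Sh2d6 in spheroids and with A-485, and Alox5ap there and in the first organoid set.

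With a replicate block the count was 0 for spheroids with 4-OHT by genotype, 1 between 3 and 5 µM A-485, 0 for the Rosa26-CreER difference, 1 for the Vil1-CreER difference and 1 for the spheroid difference; it stayed within 1.5 times elsewhere. The block in the 3 differences was chosen after seeing the data. Where only the number is shared, the block made Trpm5 pass in Rosa26-CreER villi (adjusted p = 0.00649) and Alox5ap miss in Vil1-CreER crypts (adjusted p = 0.0508); paired deviations there correlated between -0.164 and 0.599 in tissue, and such numbers were not taken as pairs.

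Of 148 log2 fold changes, those that changed sign were not called. With the block these were Dclk1 (0.03) and Avil (-0.03) in flox/+ spheroids and Pou2f3 in the Rosa26-CreER difference (0.12), and without the filter Avil between Vil1-CreER compartments (0.02). The others did so when 1 library was left out, with these lowest and highest values. Rosa26-CreER crypts gave -0.09 to 0.74 for Ptgs1. Crypts against villi gave -0.62 to 0.15 for Dclk1 (Rosa26-CreER), and -0.14 to 0.04 for Avil, -0.40 to 0.08 for Gfi1b and -0.08 to 0.21 for Alox5ap (Vil1-CreER). The first organoid set gave -0.70 to 0.04 for Ptgs1. Flox/+ against CreER-only organoids gave -0.05 to 0.14 for Pou2f3, -0.22 to 0.05 for Avil, -0.04 to 0.36 for Sh2d6, -0.30 to 0.04 for Alox5ap and -0.41 to 0.08 for Ptgs1. Flox/flox spheroids gave -0.74 to 0.21 for Trpm5. Flox/+ spheroids gave -1.84 to 1.05 for Dclk1, -1.05 to 0.87 for Trpm5, -0.39 to 0.51 for Pou2f3 and -0.85 to 0.80 for Avil. A-485 at 5 against 3 µM gave -0.90 to 0.29 for Avil. The Rosa26-CreER difference gave -0.96 to 0.44 for Pou2f3, -0.98 to 0.13 for Avil, -1.70 to 0.65 for Sh2d6 and -1.85 to 0.37 for Gfi1b. The spheroid difference gave -1.37 to 0.56 for Trpm5.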
